A study of Homo sapiens with 6 samples.

Results

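PRAMEF1, PRAMEF2, PRAMEF4, PRAMEF5, PRAMEF6, PRAMEF7, PRAMEF8, PRAMEF10, PRAMEF11 and PRAMEF12 are 10 of the 22 protein-coding PRAME family genes of chromosome 1, among 20033 protein-coding genes compared with H3K9me3 domains. They were chosen by their position under a domain that ran from position 12600001 of chromosome 1 in every library, so their presence under it, its limits and the rank of its score are given as a description, with no test. The lists of domains came from ChIP-seq of MCF10.DCIS.com cells, a line of human mammary cells of the MCF10 series, transformed with the T24 form of H-RAS, which forms lesions resembling ductal carcinoma in situ. Control cells carried the empty pSLIK-neo vector (EV) and RAB5A cells carried pSLIK-neo-RAB5A, in both cases as stable lines with a doxycycline-inducible vector, grown as monolayers. The labels describe the RAB5A libraries as RAB5A overexpression, and RAB5A is a small GTPase of early endosomes. The time of induction before fixation is not given in the sources used here. Each condition had 1 library made with the antibody ab176916 and 1 made with ab8898 (n = 2 per condition), so the spread within a condition includes the difference between antibodies. Nothing in the labels says that the libraries came from separate cultures.

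H3K9me3 is the trimethylated form of lysine 9 of histone H3, the mark of constitutive heterochromatin, and broad domains of it often cover tandem gene families. PRAME, the founder of the family, encodes a leucine-rich repeat protein first recognised as a tumour antigen in melanoma, and it serves as a substrate receptor of cullin 2 ubiquitin ligases. Its relatives on chromosome 1 arose by tandem duplication, and genes of the family are known chiefly for expression in the germ line and for silence in most somatic tissues. Each domain list carries called regions alone, so neither expression nor the level of the mark over a single gene was measured here.

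The members share sequence in front of their start sites, and these windows are shown because they part the 10 genes in groups that the choice of members did not use. Each is 70 bases of hg38 from RefSeq (GRCh38.p14), written 5′ to 3′ on the strand of the gene, with the 10-base word common to all 10 members and the letters TAAAA in capitals.
PRAMEF12: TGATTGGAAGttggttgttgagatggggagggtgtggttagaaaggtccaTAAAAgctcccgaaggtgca
PRAMEF1: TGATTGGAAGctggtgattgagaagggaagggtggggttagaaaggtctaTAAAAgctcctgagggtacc
PRAMEF2: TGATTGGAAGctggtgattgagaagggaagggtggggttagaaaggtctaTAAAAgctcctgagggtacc
PRAMEF7: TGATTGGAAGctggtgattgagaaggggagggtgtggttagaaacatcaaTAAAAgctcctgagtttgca
PRAMEF8: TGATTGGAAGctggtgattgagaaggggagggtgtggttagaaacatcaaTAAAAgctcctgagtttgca
In these 5 genes, the shared word began 50 bases before TAAAA. In the other 5, the distance was 64 bases.
PRAMEF11: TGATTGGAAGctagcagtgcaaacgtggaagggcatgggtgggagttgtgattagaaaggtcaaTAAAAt
PRAMEF4: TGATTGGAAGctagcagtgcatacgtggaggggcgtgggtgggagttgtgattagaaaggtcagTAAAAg
PRAMEF10: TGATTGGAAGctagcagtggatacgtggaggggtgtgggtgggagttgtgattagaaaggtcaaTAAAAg
PRAMEF6: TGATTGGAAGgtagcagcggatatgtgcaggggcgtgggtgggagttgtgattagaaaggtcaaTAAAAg
PRAMEF5: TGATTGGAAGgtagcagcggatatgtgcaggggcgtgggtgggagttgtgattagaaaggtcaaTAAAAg
The windows of PRAMEF1 and PRAMEF2 were identical, as were those of PRAMEF7 and PRAMEF8 and those of PRAMEF6 and PRAMEF5, so the 10 members had 7 distinct windows. TAAAA began between 28 and 65 bases before the annotated start in the first group and between 28 and 51 bases in the other.

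The word TGATTGGAAG was the longest that all 10 members shared in their promoter, read on the strand of the gene. A promoter was taken as the 250 bases before to 50 after the RefSeq start. Promoters that hold a word were counted on both strands. TGATTGGAAG was also in 6 of the 8 other PRAMEF promoters with a RefSeq entry. It was in 52 of all 35116 promoters of that length (0.148%), among them those of 35 genes outside the family. It overlaps the letters CCAAT read on the opposite strand, which all 10 members hold and which 34.6% of all promoters hold. A longer word, CAATCAGGATTAACTGG, was in 8 of 10 members (not in PRAMEF7 or PRAMEF8), in 6 of 8 other PRAMEF promoters and in 0 promoters of genes outside the family. It accounted for 14 promoters in all (0.0399%). TATAAAA, the letters of a TATA box, was in PRAMEF1 and PRAMEF2 (4.52% of all promoters), and AATAAAA was in 6 members (7.18%). A match is a description of the letters and does not show that a factor binds there.

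One gene of each group is printed over the 250 bases before its start, to show where both words lie, with the words and TAAAA in capitals. The first lies at chr1:12773488-12773737 on the plus strand and the other at chr1:12886202-12886451 on the minus strand.
PRAMEF12: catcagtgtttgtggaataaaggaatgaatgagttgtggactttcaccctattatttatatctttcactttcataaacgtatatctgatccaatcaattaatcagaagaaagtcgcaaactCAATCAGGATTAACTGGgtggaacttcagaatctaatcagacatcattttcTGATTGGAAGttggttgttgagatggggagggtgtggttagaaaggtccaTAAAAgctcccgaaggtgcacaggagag
PRAMEF4: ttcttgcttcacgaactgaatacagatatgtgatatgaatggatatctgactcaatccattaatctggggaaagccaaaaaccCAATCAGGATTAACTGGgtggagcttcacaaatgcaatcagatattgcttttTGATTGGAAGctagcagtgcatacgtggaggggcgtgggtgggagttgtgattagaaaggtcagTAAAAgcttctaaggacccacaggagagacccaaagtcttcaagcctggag
Promoter identity, the share of aligned bases that were the same, was 84.9 to 100% within the group of PRAMEF12, PRAMEF1, PRAMEF2, PRAMEF7 and PRAMEF8, and 90.7 to 99.6% within that of PRAMEF11, PRAMEF4, PRAMEF10, PRAMEF6 and PRAMEF5. Between the groups it was 72.4 to 78.7% over 25 pairs. The groups were joined at 80% of this same identity, so every pair between them was below 80% by construction. Bases in gaps, unaligned ends among them, were left out. The 100% of PRAMEF7 and PRAMEF8 was thus over 213 of the 250 bases, and that of PRAMEF1 and PRAMEF2 over 234. The fewest aligned bases were 190, for PRAMEF5 and PRAMEF8. The member promoters held 1 to 5 CG dinucleotides (median 2), whereas the median of all promoters was 14 and 33.7% of them held 5 or fewer. Their GC content was 39.3 to 44.7% (median 42.5%), with a median of 58.7% over all promoters.

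Coding sequences did not follow the promoter groups in every gene. Among the 45 pairs of members, identity of the coding sequence (canonical GENCODE 44 transcripts, 1422 to 1449 bases) was 68.9 to 99.8%, with a median of 75.9%, and 8 pairs reached 95%. PRAMEF5 and PRAMEF6 differed at 3 bases, PRAMEF7 and PRAMEF8 at 4 bases, and PRAMEF1 and PRAMEF2 at 52 bases. PRAMEF10 stood apart from its promoter group. Its promoter was 91.6 to 92.8% identical to those of PRAMEF5, PRAMEF6, PRAMEF11 and PRAMEF4, but its coding sequence was 70.2 to 70.9% identical to theirs and 77.5 and 77.9% identical to those of PRAMEF2 and PRAMEF1. Over the whole family, the coding sequence most like that of PRAMEF10 was that of PRAMEF33 (99.4%, 8 mismatches). By the same measure, PRAMEF12 had the lowest best match of the 10 members, at 89.6% with PRAMEF7. The promoter group of PRAMEF12 also divided by coding sequence. PRAMEF7 and PRAMEF8 were 72.5 to 73.2% identical to PRAMEF1 and PRAMEF2 of their own group. They were 75.9 to 77.3% identical to PRAMEF4, PRAMEF5, PRAMEF6 and PRAMEF11. PRAMEF12 was 73.4 and 73.7% identical to PRAMEF2 and PRAMEF1, and 77.2 to 78.3% identical to PRAMEF4, PRAMEF5, PRAMEF6 and PRAMEF11.

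**Figure D1:**
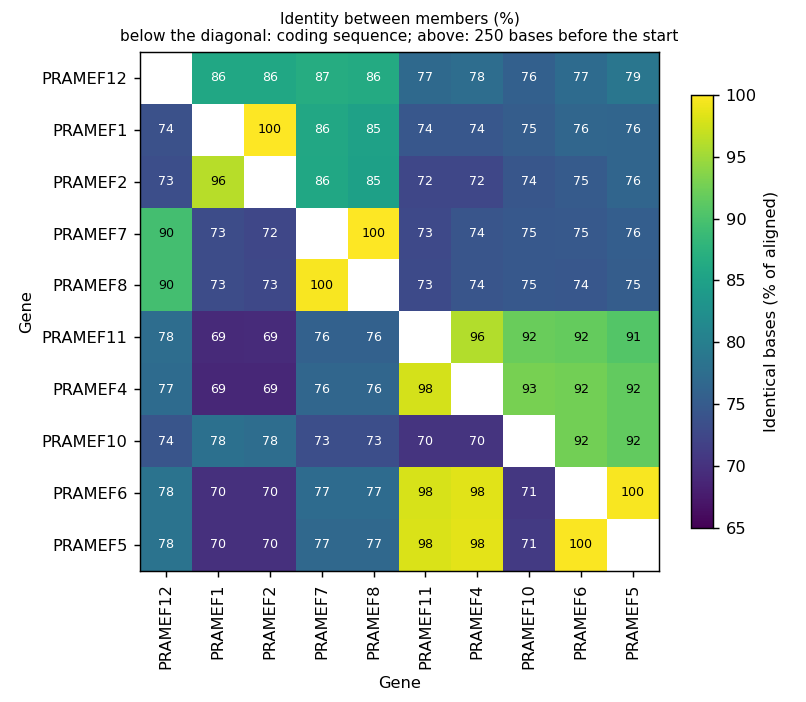
Identity between the 10 members, in percent of aligned bases. Cells below the diagonal give coding sequences and cells above it the 250 bases before the start. Of these 250 bases, 190 to 250 were aligned, and unaligned ends are left out. PRAMEF10 has 91.6 to 92.8% promoter identity with PRAMEF11, PRAMEF4, PRAMEF6 and PRAMEF5 but 70.2 to 70.9% coding identity with them.

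All 10 members lay with the whole gene body under a domain in each of the 4 lists. Of all protein-coding genes, 7.38% overlapped a domain in the control ab176916 list, 7.73% in control ab8898, 7.40% in RAB5A ab176916 and 8.32% in RAB5A ab8898, and 7.13% did so in all 4 lists. Because position under the domain chose the members, nothing is read from that difference. The members span 12773738 to 13285137 of chromosome 1 (0.511 Mb), with 5 genes on each strand and lengths of 3834 to 9238 bp. PRAMEF12 was nearest to the left limit of the domain, at 0.174 Mb, followed by PRAMEF1 at 0.191 Mb, PRAMEF11 at 0.225 Mb, PRAMEF2 at 0.257 Mb and PRAMEF4 at 0.279 Mb. PRAMEF10 lay at 0.293 Mb, PRAMEF7 at 0.317 Mb and PRAMEF6 at 0.338 Mb. PRAMEF5 and PRAMEF8 formed a separate pair at 0.654 and 0.681 Mb, with other PRAMEF genes between them and the first 8. As the domain limits have a resolution of 200 kb, the distances of PRAMEF12 and PRAMEF1 are below 1 bin.

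The other 12 PRAMEF genes (PRAMEF9, PRAMEF13, PRAMEF14, PRAMEF15, PRAMEF17, PRAMEF18, PRAMEF19, PRAMEF20, PRAMEF25, PRAMEF26, PRAMEF27 and PRAMEF33) were under the same domain in every list, so the calls do not part the members from the rest of the cluster. The 22 genes covered 0.648 Mb with a median gap of 17.9 kb between neighbours. The widest gap, 101.9 kb between PRAMEF6 and PRAMEF27, holds a run of unknown bases in the assembly, from 12954385 to 13004384. PRAME itself, on chromosome 22, was under no domain in any list.

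The domain over the cluster kept the same left limit in all 4 libraries and had a right limit 1 bin further out in both RAB5A libraries. It ran from 12600001 to 14800000 in control ab176916 and in control ab8898 (2.2 Mb, 11 bins of 200 kb), and to 15000000 in RAB5A ab176916 and in RAB5A ab8898 (2.4 Mb, 12 bins). The difference was 0.200 Mb with either antibody, the smallest step that the calls allow. Among 132 limits of the 66 domains that could be matched across the 4 lists, 3 (2.27%) lay further out in both RAB5A libraries than in both control libraries and 2 lay further in. The members sit 1.515 Mb or more from the right limit in control, and no PRAMEF gene lies in the added bin.

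**Figure D2:**
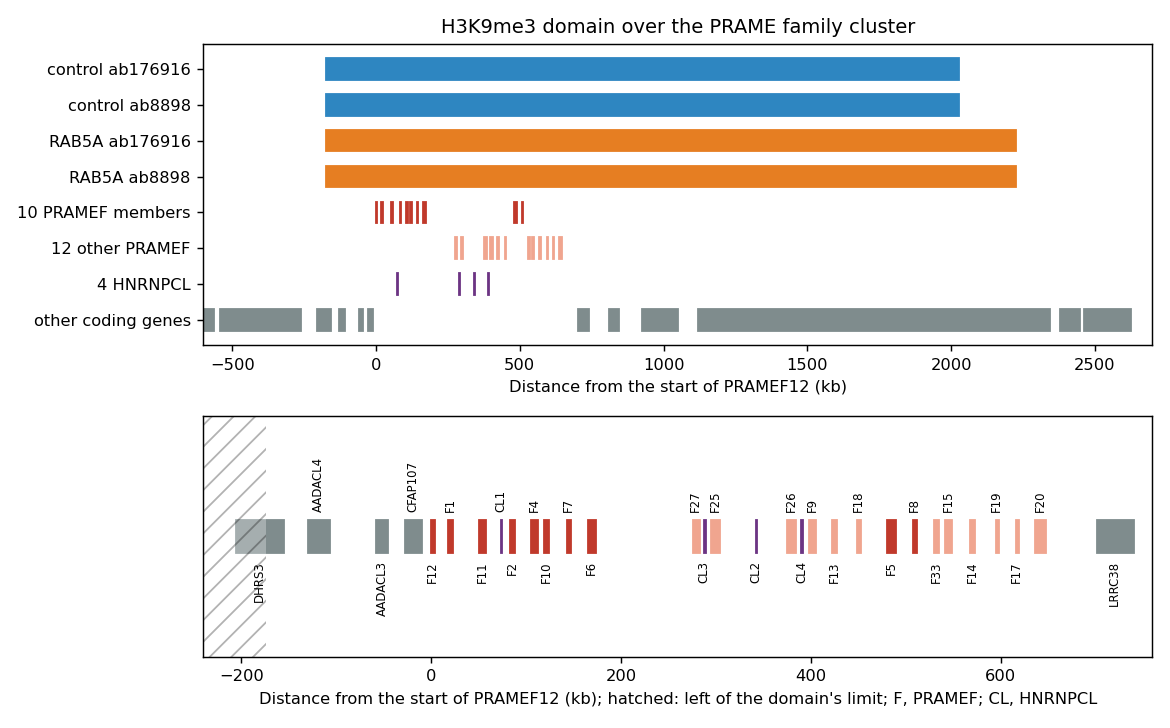
Called H3K9me3 domain in each library and the protein-coding genes around it, by distance in kb from the start of PRAMEF12, with an enlarged map of the cluster underneath. Bars are domains (upper rows) or gene bodies. All 4 domains begin at the same bin, and both RAB5A domains end 200 kb further to the right than the control domains.

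The score that the authors' caller gave the domain ranked higher in both RAB5A lists. The score has no stated unit and was read only as a rank within its own list. It was 8.88 in control ab176916 (13 of 78 domains from the lowest), 10.1 in control ab8898 (13 of 76), 10.6 in RAB5A ab176916 (29 of 79) and 11.9 in RAB5A ab8898 (27 of 76). As percentiles these were 16.7 and 17.1 in control and 36.7 and 35.5 in RAB5A, a mean of 16.9 ± 0.310 against 36.1 ± 0.836 (SD, n = 2 each). Both RAB5A values lay above both control values, by 20.0 points with ab176916 and 18.4 points with ab8898. In both control lists the score was below the lower quartile of the list (9.68 and 10.7), and in both RAB5A lists it was above it (9.34 and 10.2) and below the median (13.3 and 14.4).

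Among the 66 matched domains, 1 (1.52%), the domain over the cluster itself, gained that many percentile points or more with both antibodies. The shift ran from -9.5 to 20.0 points with ab176916 (median 0.60) and from -13.2 to 18.4 points with ab8898 (median 1.32). The domain was chosen with this shift known, so its place at the top is a description. A score that sums over bins moves with length, and divided by the number of bins it was 0.807 and 0.921 in control and 0.880 and 0.995 in RAB5A. On that scale the mean percentile was 22.1 ± 0.406 in control and 28.4 ± 0.777 in RAB5A (SD, n = 2 each), a difference of 6.32 points, and the shift ranked 7 of 66 with both antibodies. With 2 libraries a condition, an exact permutation test cannot give a two-sided p below 0.33, and none was run.

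**Figure D3:**
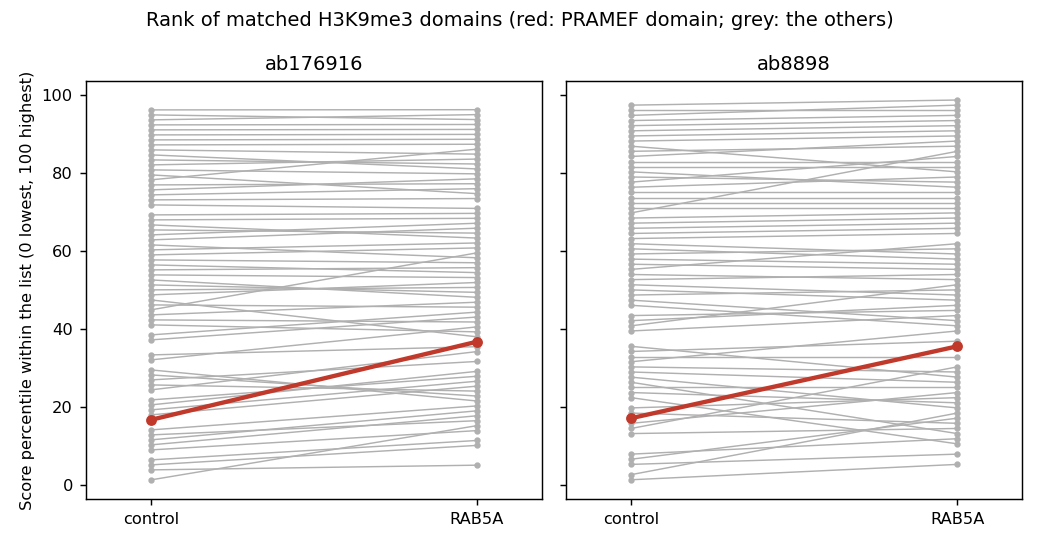
Score percentile of each of the 66 matched domains within its own list (0 lowest, 100 highest) in control and RAB5A cells, for each antibody, with a line joining the values of a domain. The domain over the PRAMEF cluster (red) went from 16.7 to 36.7 with ab176916 and from 17.1 to 35.5 with ab8898.

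Besides the family, 4 HNRNPCL genes and 8 other protein-coding genes lay under the domain. HNRNPCL1, HNRNPCL2, HNRNPCL3 and HNRNPCL4, which resemble the RNA-binding protein hnRNP C, lie among the PRAMEF genes. To the left of the cluster were DHRS3, a retinaldehyde reductase with its start site and 36.2% of its body under the domain, the arylacetamide deacetylase relatives AADACL4 and AADACL3, and CFAP107, a protein of cilia and flagella. To the right were LRRC38, an auxiliary subunit of potassium channels, PDPN, which encodes podoplanin, PRDM2, a zinc finger protein of the PR domain family, and KAZN, which encodes kazrin, a protein of cell junctions. The cluster held 26 genes in 0.648 Mb (40.1 per Mb), and the rest of the RAB5A domain to its right held 4 in 1.579 Mb (2.53 per Mb). The annotation also placed 12 lncRNA genes, 12 pseudogenes (8 of them PRAMEF pseudogenes) and 4 small RNA genes there, which makes 62 genes under either form of the domain.

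Both right limits fell inside KAZN, and the added bin held no other gene. In its canonical transcript of 15 exons, the control limit lay in intron 1 and the RAB5A limit in intron 2. The domain covered 74.0% of the KAZN gene body in control and 90.4% in RAB5A cells. That gene body (13892792 to 15118043) is longer than the canonical transcript, which begins at 14598685, so these shares do not apply to the transcript. Outside the limits, the nearest protein-coding genes were VPS13D (88.0 kb) and TNFRSF1B (390.8 kb) on the left, and TMEM51 (152.5 kb) and FHAD1 (236.5 kb) on the right, as measured from the RAB5A domain.

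Near-identical copies bear on what a read can show in this cluster, because the authors removed reads with a mapping quality below 1. The share of 75-base words, the length of the reads, that occur once in the assembled chromosomes was 99.9% over the body of PRAMEF12, 75.7% in PRAMEF2, 63.6% in PRAMEF11, 62.0% in PRAMEF1 and 50.1% in PRAMEF4. It was 25.7% in PRAMEF10, 14.0% in PRAMEF8, 12.9% in PRAMEF7, 9.67% in PRAMEF6 and 8.41% in PRAMEF5. The member median was 37.9%. The 12 other PRAMEF genes had 7.50 to 99.4% (median 34.0%), and the 8 genes outside both families had 98.7 to 99.5%.

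**Figure D4:**
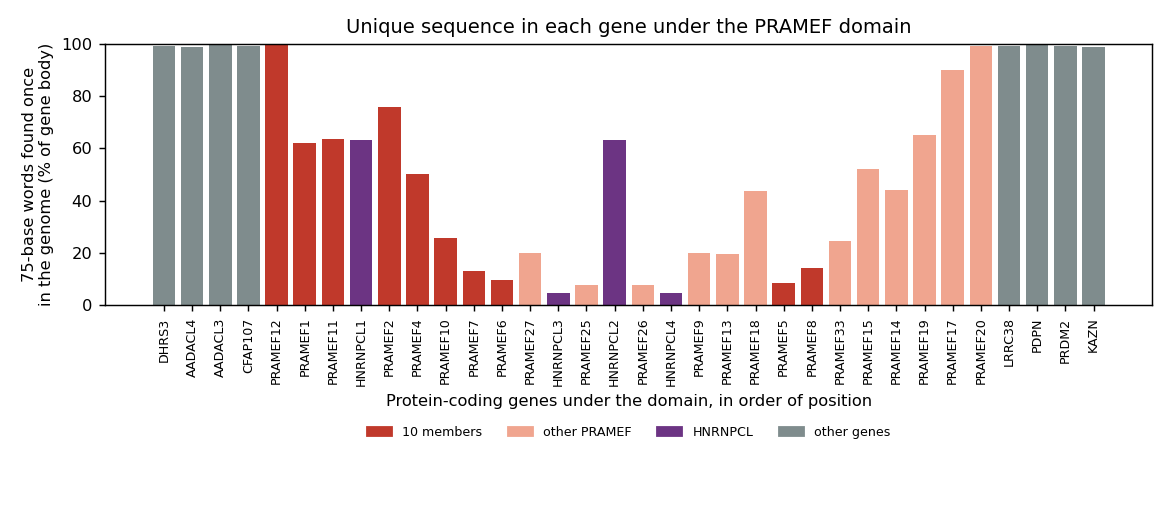
Share of the 75-base words of each gene body that occur once in the genome, in percent, for the protein-coding genes under the domain in order of position. Members (red) range from 8.41% in PRAMEF5 to 99.9% in PRAMEF12, and the 8 genes outside the PRAMEF and HNRNPCL families (grey) from 98.7 to 99.5%.

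By 200 kb bin, the 5 bins that hold PRAMEF genes had 95.4%, 47.1%, 17.9%, 44.9% and 98.3% unique words from left to right, and 61.6% together. The rest of the RAB5A domain had 98.6%. For the 11 bins to the left of the domain the value was 98.7%, and for the 11 bins to the right 92.1%. Low uniqueness was therefore found in the middle 3 bins of the cluster, while the bins around them, which belong to the same called domain, were nearly all unique. The part of repeated sequence in the calls was not tested.

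Other gene families and complexes are set beside the members as counts, against the 7.13% of all protein-coding genes that lay under a domain in all 4 lists. Cancer-testis families of chromosome X, like PRAME expressed mainly in testis and tumours, had 83 of 89 genes (93.3%) under a domain in all 4 lists. No share was computed for all genes of chromosome X, and the domains over these 83 genes were not counted. Clustered genes can lie under the same domain, so a count of genes in any of these families is not a count of separate calls. The shares were 77.6% for ZNF genes of chromosome 19 (191 of 246), 69.2% for olfactory receptor (OR) genes of chromosome 1 (45 of 65) and 30.9% for OR genes of chromosome 11 (55 of 178). The count was 0 of 15 genes for the cullin 2 ubiquitin ligase list, in every list of domains, and 1 of 12 (8.33%) for writers and readers of H3K9me3. For lists this short, both counts are near the share of all genes. The 1 gene was SUV39H1, a methyltransferase of this residue, and TRIM28, a corepressor of zinc finger proteins, lay under a domain in both ab8898 lists and in neither ab176916 list. Chromosome 1 had 2 other domains in each list. The one that began at 3800001, with 4 or 6 protein-coding genes, ended at 5800000 in both ab176916 lists and at 6000000 in both ab8898 lists, so its right limit differed by 1 bin between antibodies and not between conditions. Its score ranked 42 and 45 from the lowest in control and 42 and 46 in RAB5A. The one with 45 OR genes (246600001 to 248800000) had the same limits in all 4 lists, with scores of 7.88 and 8.89 in control and 8.08 and 8.70 in RAB5A, at ranks 4 and 1 against 8 and 4 from the lowest.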

How the data were processed

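Domain lists of 4 H3K9me3 libraries, from MCF10.DCIS.com cells with the empty vector or with RAB5A, were analysed. The 2 input libraries were not analysed here. Per the labels and the study's methods, the authors trimmed single reads of 75 bases with Trimmomatic 0.39, aligned them to hg38 with BWA 0.7.17-r1188, processed alignments with Picard 2.22 and SAMtools 1.9, removed reads of mapping quality below 1, and called broad domains in each library with EDD in bins of 200 kb and with a gap penalty of 25. The deposited lists hold positions and a score for each domain, whose unit is not stated. Read counts are not part of them. Only an average depth over all samples is stated by the study, and none for a single library, so counting error could not be computed.

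Gene bodies of GENCODE 44 were compared with the domains (overlap of at least 1 bp) in Python 3.11.15. Domains were matched across lists by reciprocal overlap of at least 50%. Words of 75 bases were counted on both strands of 25 hg38 sequences, by a step tested on simulated data. Coding sequences and promoters were aligned globally with Biopython (match 2, mismatch -3, gap opening -8, gap extension -1), and promoter groups were joined at 80% identity. Genes named are the members, the other PRAMEF genes, the other protein-coding genes under the domain, 2 neighbours of each limit and, for lists with at most 5 genes under a domain, those genes. The members and gene lists were chosen with earlier results of these data known.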

Additional observations from a re-analysis of the deposited data

How the results depend on the processing

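Of 35 alternative values for 9 results, 31 stayed close to the reported value (within 1.5 times for a count, 1 SD for a measure with replicates) and 4 moved. For the share of unique words, which has no replicate, any change was counted as moved. With domains below the lower quartile score of their list left out, 0 members remained under a domain in control, while 10 were under one in RAB5A. All 10 lie under the same domain, so this is 1 domain on either side of a cut-off and not a separate result for each gene. The rank of its score was part of the choice. Per bin, the difference in score percentile was 6.32 points. The median share of unique words in the members was 24.5% with words of 50 bases and 15.8% with words of 35 bases. With 1 bin taken off each end of every domain, 8 members were under a domain in either condition, and PRAMEF12 and PRAMEF1 were not. Leaving out each replicate gave a percentile difference of 18.4 to 20.0 points and a length difference of 0.200 Mb. The libraries pair by antibody, and the percentile differences of 18.4 and 20.0 points are those within ab8898 and within ab176916. No paired analysis was possible because no test was run on values that chose the members, so there was no fit to which a replicate block could be added. The depth of single libraries is not given, limits are known to 1 bin, and the lists do not show how the mark varied from gene to gene within the domain.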
